A study of Mus musculus with 4 samples.

Results

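The 44 genes described here encode the enzymes of glycolysis, the carriers of glucose and lactate, the pyruvate dehydrogenase subunit Pdha1 and the kinases that inhibit this enzyme, and the hypoxia-inducible factors (HIFs) with their regulators and targets. They were chosen by gene symbol from 18526 genes listed in the deposited tables, and all 44 were listed with both controls and passed the filter on low counts among 15236 genes tested. RNA was sequenced from microglia, which are the brain's own macrophages, taken by fluorescence sorting from C57BL/6 mouse embryos at embryonic day 14. The mutant group, labelled Arid1acKO, is a conditional knockout of Arid1a, which encodes a subunit of BAF, a complex that remodels chromatin, and the control group, labelled Arid1afl/fl, carries the floxed allele without a knockout label. The design text names the telencephalon and the protocol the cortex, and which Cre line was used is not given in the sources used here. All values come from 1 knockout library (Arid1a cKO 2) and 2 control libraries (control 5 and control 6), each made from 2 μg of RNA; Arid1a cKO 1 was not analysed here. Knockout values therefore have no replicate error. Whether the libraries stand for different animals is not stated in the labels, and the spread behind the p-values, that between these libraries, may be technical.

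Glycolysis splits glucose to pyruvate in the cytosol. Hexokinase traps glucose, phosphofructokinase commits it to the pathway, and lactate dehydrogenase turns pyruvate into lactate, which monocarboxylate transporters carry out of the cell. HIF-1 and HIF-2 are pairs of an oxygen-sensitive alpha subunit and the stable partner Arnt. With oxygen present, prolyl hydroxylases of the Egln family mark the alpha subunit and the Vhl protein sends it to the proteasome, so much of HIF control acts on protein and is not read by RNA sequencing. In low oxygen HIFs raise many glycolytic genes, and macrophages are known to shift to glycolysis on activation.

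Libraries held 17262261 reads for Arid1a cKO 2, 18608979 for control 5 and 13774075 for control 6. Levels are given as CPM, the read count scaled to library size with TMM factors, and 1 read amounted to 0.0547 CPM in Arid1a cKO 2, 0.0559 CPM in control 5 and 0.0741 CPM in control 6. Arid1a itself had 68.9 CPM in Arid1a cKO 2, against 109 and 130 CPM in controls 5 and 6, the direction of its label (adjusted p = 0.901, edgeR). All 16 microglia and macrophage markers had reads in every library, with a summed level of 19530 CPM in Arid1a cKO 2 and 26750 and 35500 CPM in the controls. In 13 of these 16 the knockout library was the lowest, as it was in 31.1% of all genes tested and in 45.1% of those at a mean of 100 CPM or more. In bulk RNA, fewer cells of a type and less RNA per cell cannot be told apart.

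Of the 18 enzymes from hexokinase to lactate dehydrogenase, 13 stood above both controls in the knockout library (38.0% of all genes tested) and 2 below both (31.1%), with Hk2 at 1.98-fold and Ldha at 1.85-fold the control mean. Of the 17 HIF factors, regulators and targets, 8 stood above both controls and 5 below both. No gene of the 44 passed the test over all genes (edgeR quasi-likelihood, smallest adjusted p = 0.704, background 0.0394% called). At an unadjusted p under 0.05 there were 5, Mif, Hk2, Tpi1, Ldha and Gpi1, all higher in the knockout library, where 2.46% of all genes tested were higher and 3.54% lower at that p. The knockout library lay above both controls in 27 of the 44 and below both in 8.

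Restricting the count to abundant genes gave the same direction. Of the 36 genes at a mean of 5 CPM or more, 23 lay above both controls (background 35.8%) and 7 below both (35.3%). Of the 20 at a mean of 100 CPM or more, 12 lay above both (29.0%) and 5 below both (45.1%). At least 1.5-fold above both controls were 11 of the 36 (background 9.57%) and 7 of the 20 (4.82%), and none was 1.5-fold below both (11.4% and 11.8%). The 1.5-fold limit was chosen after the values were seen. The median log2 fold change was 0.52 over the 44, against 0.05 over all genes tested, and 0.70 over the 18 enzymes and 0.13 over the 17 HIF genes. Whether enzymes and HIF genes differ from each other was not tested.

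**Figure D1:**
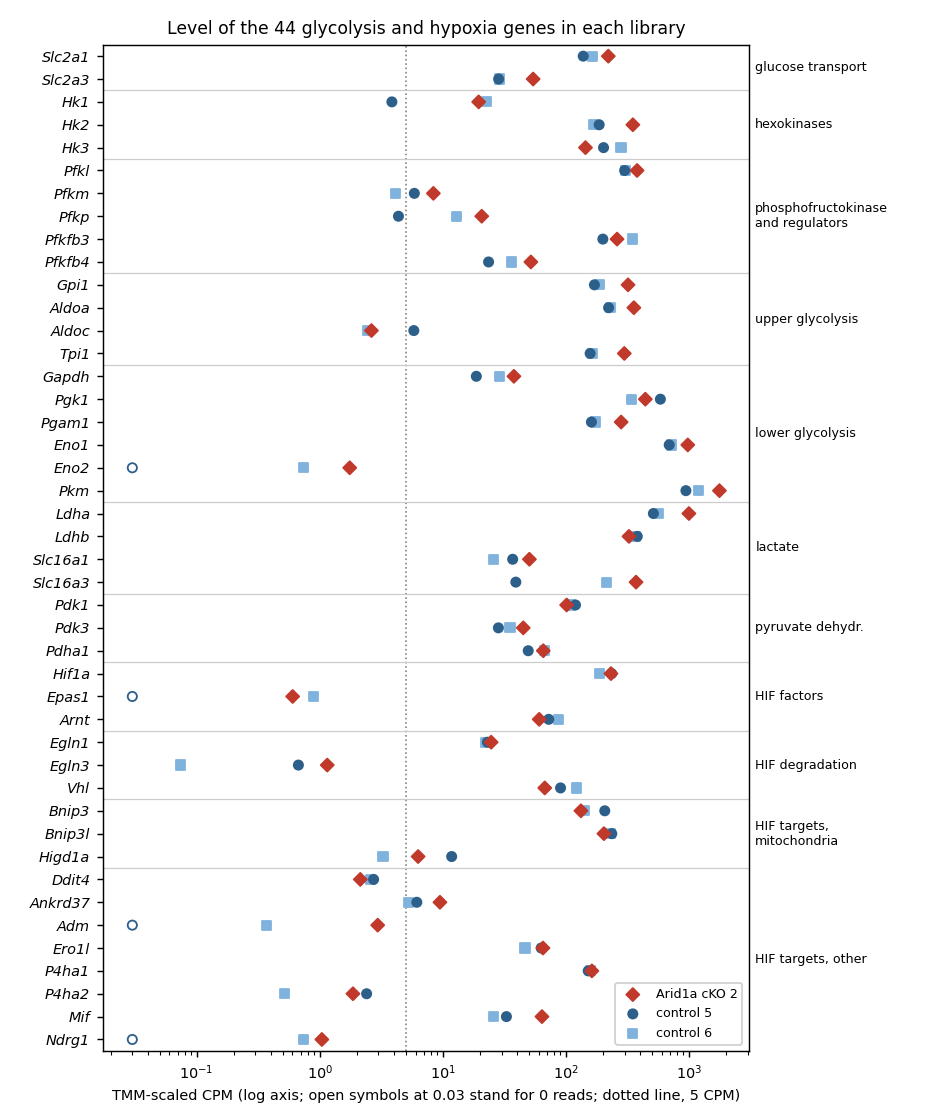
TMM-scaled CPM (log axis) of the 44 genes, grouped by role, in Arid1a cKO 2 (red diamonds), control 5 (dark blue circles) and control 6 (light blue squares); open symbols stand for 0 reads. The knockout symbol lies right of both controls in 27 genes, among them Ldha at 997 CPM, and between or left of the controls for Hif1a, Arnt, Vhl and Bnip3.

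Both glucose carriers were highest in the knockout library (38.0% of all genes tested). Slc2a1, the GLUT1 transporter of most cells, had 221 CPM in Arid1a cKO 2, against 138 CPM in control 5 and 165 CPM in control 6 (log2 fold change 0.54, SE 0.36, adjusted p = 0.959, edgeR). Slc2a3, the high-affinity transporter GLUT3, had 54.1 CPM in Arid1a cKO 2, against 28.4 and 29.0 CPM in controls 5 and 6 (log2 fold change 0.92, SE 0.46, adjusted p = 0.892). The controls of Slc2a3 nearly coincided, so the knockout value lay far outside their spread, though that spread rests on 2 libraries.

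Hk2 and Hk3 lay on opposite sides of the controls. Hk2, the inducible isozyme that can dock on mitochondria, had 350 CPM in Arid1a cKO 2, against 177 ± 13.5 CPM in controls (SD, n = 2), with a fitted log2 fold change of 0.98 (SE 0.35, adjusted p = 0.704, edgeR). Hk3, the isozyme typical of myeloid cells, had 144 CPM in Arid1a cKO 2, against 202 and 280 CPM in controls 5 and 6 (log2 fold change -0.74, SE 0.40, adjusted p = 0.930). In both genes the knockout value lay outside the range of the controls. Hk1, the housekeeping isozyme of brain, had 19.5 CPM in Arid1a cKO 2, against 3.85 and 22.7 CPM in controls 5 and 6, so its fold depends on which control is taken. Hk2 gave 2.43 reads for each Hk3 read in Arid1a cKO 2 (interval 2.32 to 2.54), against 0.922 in control 5 (0.879 to 0.966) and 0.598 in control 6 (0.567 to 0.630). Such a ratio within a library does not depend on the scaling between libraries. The intervals cover counting error only, and those of the controls did not overlap each other either.

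At the phosphofructokinase step the main isozyme differed little. Pfkl, the liver-type subunit and the highest of the 3 subunits per kb of transcript, had 378 CPM in Arid1a cKO 2, against 300 and 306 CPM in controls 5 and 6 (log2 fold change 0.32, SE 0.34, adjusted p = 1.000, edgeR). The platelet-type Pfkp had 20.7 CPM in Arid1a cKO 2, against 4.36 and 12.97 CPM in controls 5 and 6 (log2 fold change 1.26, SE 0.79, adjusted p = 0.959). The muscle-type Pfkm had 8.38 CPM in Arid1a cKO 2, against 5.86 and 4.15 CPM (log2 fold change 0.74, SE 0.92, adjusted p = 1.000), and Gm26513 on the same strand covers 10.2% of its exon bases. All 3 subunits were highest in the knockout library (38.0% of all genes tested), and the controls lay far apart for Pfkp.

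The bifunctional enzymes that make the activator fructose-2,6-bisphosphate did not share a direction. Pfkfb3, the form with the strongest kinase activity, lay between the controls, at 260 CPM in Arid1a cKO 2 and 199 and 346 CPM in controls 5 and 6 (log2 fold change -0.07, SE 0.43, adjusted p = 1.000, edgeR). Pfkfb4 had 51.9 CPM in Arid1a cKO 2, against 23.5 and 36.3 CPM in controls 5 and 6 (log2 fold change 0.80, SE 0.49, adjusted p = 0.958). For each Pfkfb3 read there were 0.199 Pfkfb4 reads in Arid1a cKO 2, against 0.118 in control 5 and 0.105 in control 6.

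Of the remaining 4 enzymes of upper glycolysis, 3 lay above both controls in the knockout library (38.0% of all genes tested) and Aldoc lay between them. Gpi1, which turns glucose-6-phosphate into fructose-6-phosphate, had 319 CPM in Arid1a cKO 2, against 179 ± 12.3 CPM in controls (SD, n = 2), with a fitted log2 fold change of 0.84 (SE 0.35, adjusted p = 0.819, edgeR). Gm26762, on the opposite strand, covers 11.5% of its exon bases, and counts without strand cannot tell its reads apart. Tpi1, which interconverts the 3-carbon sugars, had 298 CPM in Arid1a cKO 2, against 161 ± 5.02 CPM in controls (log2 fold change 0.89, SE 0.35, adjusted p = 0.797). Aldoa, the main aldolase, had 356 CPM in Arid1a cKO 2, against 222 and 232 CPM in controls 5 and 6. Aldoc, the brain-type aldolase, was low, at 2.63 CPM in Arid1a cKO 2, against 5.81 and 2.45 CPM in controls 5 and 6. In Gpi1, Tpi1 and Aldoa the knockout library lay at least 1.5-fold above either control.

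**Figure D2:**
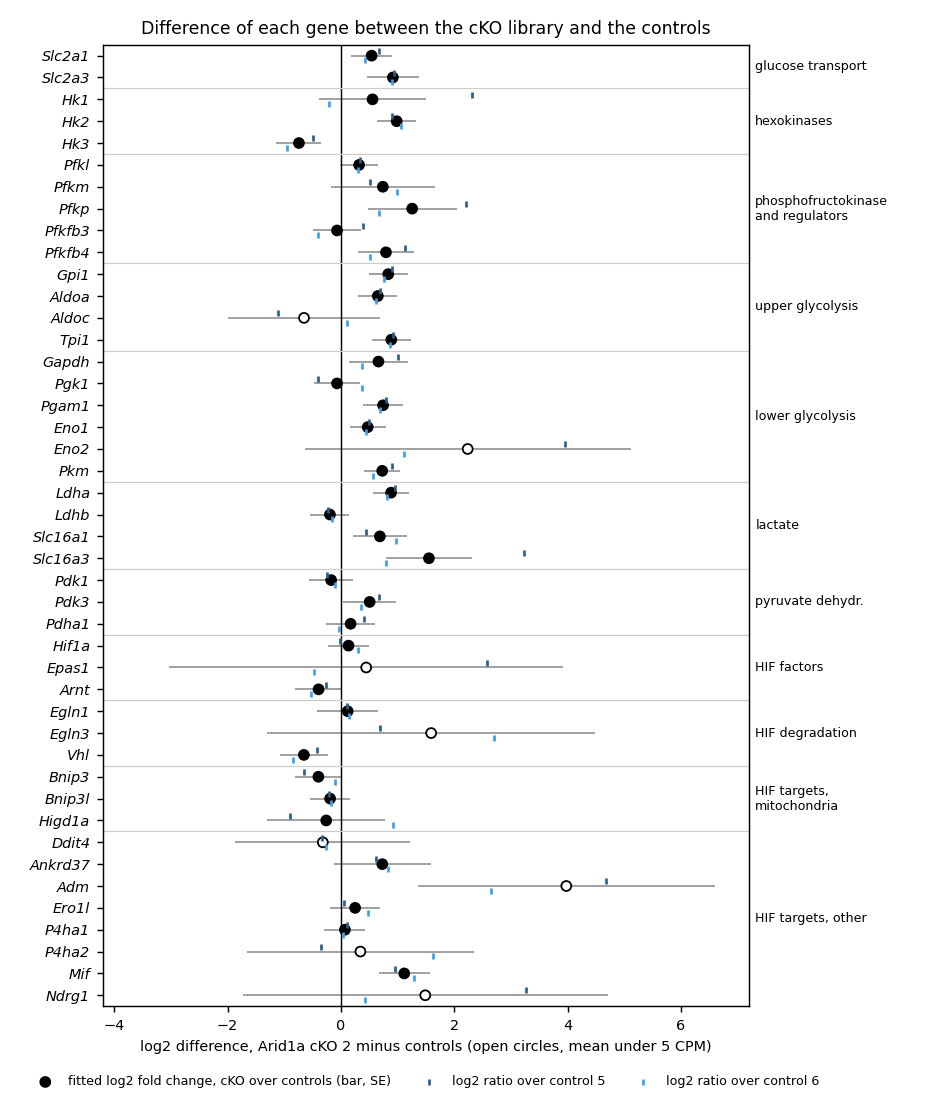
Fitted log2 fold change of each gene, Arid1a cKO 2 over the controls (circles, open under a mean of 5 CPM; bars are SE), with the log2 ratio over control 5 (dark ticks) and over control 6 (light ticks). Hk2, Tpi1, Gpi1 and Ldha sit near 0.8 to 1.0 with both ticks close together, while Hk1, Pfkp and Slc16a3 have ticks far apart.

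In lower glycolysis 5 of 6 genes were highest in the knockout library (38.0% of all genes tested), among them Eno2 with few reads. Pkm, pyruvate kinase of the muscle type and the highest of the 44 per kb of transcript in each library, had 1766 CPM in Arid1a cKO 2, against 943 and 1187 CPM in controls 5 and 6 (log2 fold change 0.73, SE 0.32, adjusted p = 0.850, edgeR). Gm49759, on the same strand, covers 15.3% of its exon bases. Pgam1, the phosphoglycerate mutase, had 281 CPM in Arid1a cKO 2, against 168 ± 9.41 CPM in controls (SD, n = 2), with a fitted log2 fold change of 0.74 (SE 0.35, adjusted p = 0.875). Eno1, the ubiquitous enolase, had 977 CPM in Arid1a cKO 2, against 690 and 717 CPM in controls 5 and 6. The neuronal enolase Eno2 had 32 reads in Arid1a cKO 2, against 0 and 10 reads in controls 5 and 6.

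Pgk1, which makes the first ATP of the pathway, was the exception. It had 441 CPM in Arid1a cKO 2, between 585 CPM in control 5 and 341 CPM in control 6 (log2 fold change -0.07, SE 0.41, adjusted p = 1.000, edgeR).

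Gapdh counts need a separate reading. The gene had 37.8 CPM in Arid1a cKO 2, against 18.7 and 29.0 CPM in controls 5 and 6 (log2 fold change 0.66, SE 0.53, adjusted p = 1.000, edgeR). Per kb of transcript it had 29.7 CPM in Arid1a cKO 2, against 14.7 and 22.8 CPM in controls 5 and 6, the lowest level of the 11 steps in each library. The annotation holds 78 near-identical copies of Gapdh, of which 36 are listed in the tables, and these carried 5511 reads in Arid1a cKO 2, 3094 in control 5 and 2695 in control 6. Summed with its copies, Gapdh had 339 CPM in Arid1a cKO 2, against 192 and 229 CPM in controls 5 and 6. Eno1 has 3 copies, among them Eno1b, with 5914 reads in Arid1a cKO 2 and 3890 and 2675 in the controls, and reached 1300 CPM with them in Arid1a cKO 2, against 907 and 916 CPM in controls 5 and 6. Both sums kept the knockout library highest. In all, 13 of the 44 genes had at least 1 such copy, so their levels are uncertain where the counting could divide reads.

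Read along the pathway and per kb of transcript, 9 of 11 steps were highest in the knockout library. Of all genes tested, 38.0% stood above both controls. The steps sum enzymes already counted above, and several hold a single gene, so this count is not a separate result. The sum for triosephosphate isomerase was 1.85-fold the control mean, for glucose-6-phosphate isomerase 1.78-fold, for phosphoglycerate mutase 1.68-fold and for pyruvate kinase 1.66-fold. Lactate dehydrogenase had 877 CPM per kb in Arid1a cKO 2, against 614 and 636 CPM per kb in controls 5 and 6. The hexokinase step, with Hk2 and Hk3 in opposite directions, had 138 CPM per kb in Arid1a cKO 2, between 113 in control 5 and 140 in control 6. Phosphoglycerate kinase also lay between the controls. The same 9 steps were highest per kb of all annotated exons, though a change of length cannot alter the order for a step of a single gene.

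**Figure D3:**
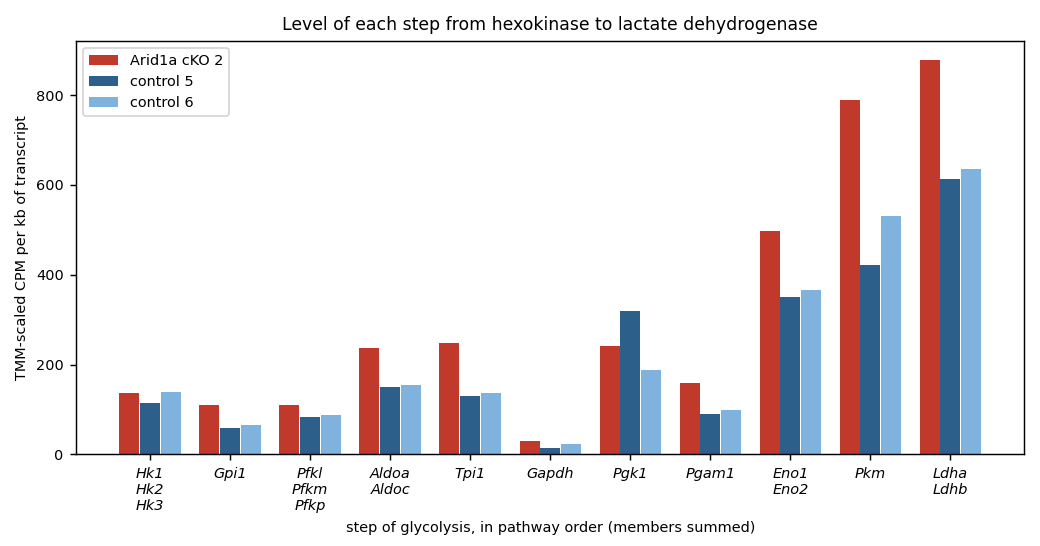
TMM-scaled CPM per kb of transcript at each of 11 steps, from hexokinase to lactate dehydrogenase, summed over the isozymes named under each step, in Arid1a cKO 2 (red), control 5 (dark blue) and control 6 (light blue). The red bar is tallest in 9 steps and lies between the controls for hexokinase and phosphoglycerate kinase.

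The lactate branch was led by Ldha and Slc16a3. Ldha, the lactate dehydrogenase subunit that favours lactate formation, had 997 CPM in Arid1a cKO 2, against 540 ± 37.5 CPM in controls (SD, n = 2), with a fitted log2 fold change of 0.89 (SE 0.32, adjusted p = 0.733, edgeR). Ldhb, the subunit that favours the reverse reaction, had 325 CPM in Arid1a cKO 2, against 380 and 364 CPM in controls 5 and 6 (log2 fold change -0.19). Ldha gave 3.07 reads for each Ldhb read in Arid1a cKO 2 (interval 2.98 to 3.16), against 1.35 in control 5 (1.31 to 1.40) and 1.56 in control 6 (1.501 to 1.61). The knockout ratio lay outside both control intervals, and the controls' own intervals did not overlap either.

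Slc16a3, the lactate exporter MCT4, had the largest fold change of the genes at a mean of 5 CPM or more, and its controls lay far apart. It had 371 CPM in Arid1a cKO 2, against 39.2 CPM in control 5 and 214 CPM in control 6 (log2 fold change 1.55, SE 0.77, adjusted p = 0.889, edgeR). The log2 ratio was 3.24 over control 5 and 0.80 over control 6, so control 5 decides most of the size. Slc16a1, the carrier MCT1, had 50.5 CPM in Arid1a cKO 2, against 36.9 and 25.7 CPM in controls 5 and 6 (log2 fold change 0.69, SE 0.48, adjusted p = 0.962). Slc16a3 reads for each Slc16a1 read numbered 7.35 in Arid1a cKO 2, against 1.06 in control 5 and 8.31 in control 6, so the ratio in the knockout library lay between the controls.

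**Figure D4:**
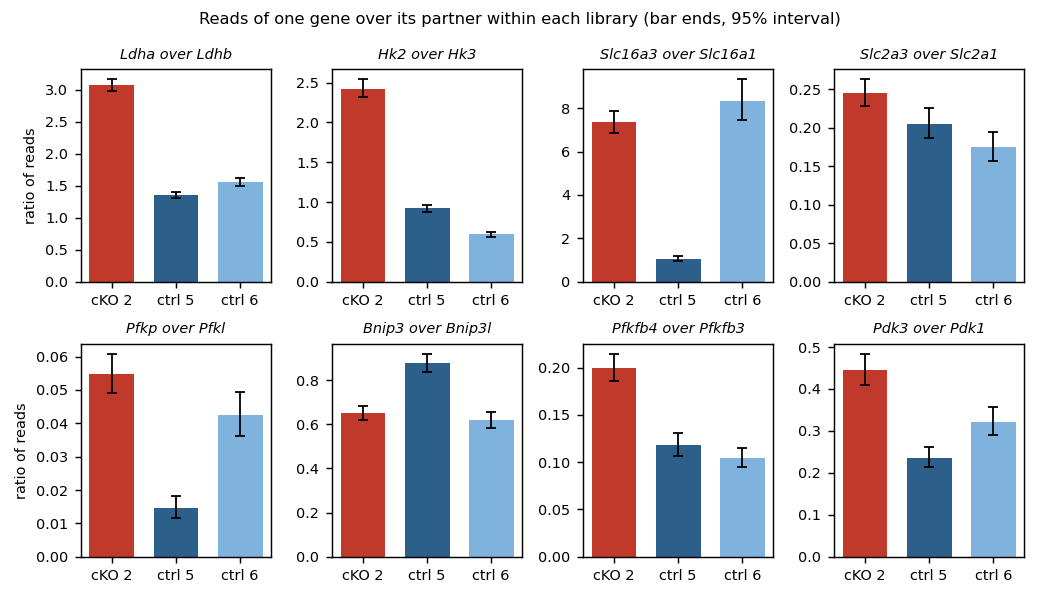
Ratio of reads between paired genes within each library, Arid1a cKO 2 at left and controls 5 and 6 after it; bars start at 0 and bar ends show exact 95% binomial intervals. The Ldha over Ldhb ratio is 3.07 in Arid1a cKO 2, against 1.35 and 1.56 in controls 5 and 6, and Hk2 over Hk3 separates the libraries likewise, while Slc16a3 over Slc16a1 and Bnip3 over Bnip3l do not.

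Pdk1, Pdk3 and Pdha1 act where pyruvate carbon enters the tricarboxylic acid cycle. Among them, 1 lay above both controls (38.0% of all genes tested), 1 below both (31.1%) and 1 between them. Pdk1, the pyruvate dehydrogenase kinase best known as a HIF-1 target, had 101 CPM in Arid1a cKO 2, against 114 ± 7.56 CPM in controls (SD, n = 2), with a fitted log2 fold change of -0.17 (SE 0.39, adjusted p = 1.000, edgeR). Pdk3, another kinase of the family, had 45.0 CPM in Arid1a cKO 2, against 28.3 and 35.1 CPM in controls 5 and 6. Pdk3 gave 0.444 reads for each Pdk1 read in Arid1a cKO 2 (interval 0.409 to 0.482), against 0.237 in control 5 (0.214 to 0.261) and 0.322 in control 6 (0.290 to 0.358). None of these intervals overlapped, the controls' own included, and they cover counting error only. Pdha1, the catalytic subunit that these kinases switch off, had 65.5 CPM in Arid1a cKO 2, against 49.4 and 67.0 CPM in controls 5 and 6, and the antisense gene Map3k15 covers 16.2% of its exon bases.

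None of the 3 HIF factors lay above both controls in the knockout library (38.0% of all genes tested). These 3 genes are too few to compare with that share. Hif1a, the alpha subunit of HIF-1, had 232 CPM in Arid1a cKO 2, against 235 and 188 CPM in controls 5 and 6 (log2 fold change 0.13, SE 0.37, adjusted p = 1.000, edgeR). Epas1, the alpha subunit of HIF-2, was close to absent in all libraries, with 11 reads in Arid1a cKO 2 and 0 and 12 reads in controls 5 and 6 (log2 fold change 0.45, SE 3.48, adjusted p = 1.000). Arnt, their common partner, was lowest in the knockout library, with 60.7 CPM against 72.4 and 87.0 CPM in controls 5 and 6 (log2 fold change -0.39, SE 0.42, adjusted p = 1.000).

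The machinery that removes HIF gave no common direction. Vhl, which binds hydroxylated HIF alpha for degradation, had 67.3 CPM in Arid1a cKO 2, against 90.4 and 121 CPM in controls 5 and 6, a log2 fold change of -0.65 (SE 0.42, adjusted p = 0.959, edgeR). Egln1, the main HIF prolyl hydroxylase, had 24.7 CPM in Arid1a cKO 2, against 23.0 and 22.5 CPM in controls 5 and 6 (log2 fold change 0.12, SE 0.54, adjusted p = 1.000). Egln3, the hydroxylase that HIF itself induces, had 21 reads in Arid1a cKO 2, against 12 reads and 1 read in controls 5 and 6 (log2 fold change 1.59, SE 2.90, adjusted p = 1.000). The counting interval of the knockout library lay clear of 1 control but overlapped the other for both Egln3 (clear of control 6) and Epas1 (clear of control 5).

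Of the 3 HIF targets of mitophagy and mitochondria, 2 lay below both controls (31.1% of all genes tested) and 1 between them. Bnip3, a mitophagy receptor, had 132 CPM in Arid1a cKO 2, against 207 and 142 CPM in controls 5 and 6 (log2 fold change -0.40, SE 0.41, adjusted p = 1.000, edgeR). Its homologue Bnip3l had 204 CPM in Arid1a cKO 2, against 236 and 229 CPM in controls 5 and 6. Higd1a, a respiratory chain assembly factor, had 6.29 CPM in Arid1a cKO 2, between 11.8 CPM in control 5 and 3.26 CPM in control 6. The antisense gene Gm45507 covers 22.2% of the exon bases of Bnip3, and Gm47112 covers 22.5% of those of Higd1a.

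Of the 8 other HIF targets, 6 lay above both controls (38.0% of all genes tested), and Mif was the 1 at an unadjusted p under 0.05. Mif, a cytokine and tautomerase that many macrophages secrete, had 63.8 CPM in Arid1a cKO 2, against 29.4 ± 4.89 CPM in controls (SD, n = 2), with a fitted log2 fold change of 1.12 (SE 0.45, adjusted p = 0.810, edgeR). Ankrd37, an ankyrin repeat protein, had 9.47 CPM in Arid1a cKO 2, against 6.14 and 5.26 CPM in controls 5 and 6 (log2 fold change 0.73, SE 0.86, adjusted p = 1.000), with 26.4% of its exon bases covered by Ufsp2 and Lrp2bp on the other strand. P4ha1, a collagen prolyl hydroxylase, had 162 CPM in Arid1a cKO 2, against 152 and 158 CPM in controls 5 and 6. Ero1l, an oxidase of the endoplasmic reticulum, had 65.1 CPM in Arid1a cKO 2, against 62.9 and 46.5 CPM. For P4ha1 and Ero1l the counting interval of the knockout library overlapped that of the nearer control.

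The remaining 4 targets had few reads. Adm, the peptide hormone adrenomedullin, had 54 reads in Arid1a cKO 2 (2.96 CPM, interval 2.22 to 3.86), against 0 reads in control 5 and 5 reads in control 6. Its log2 fold change of 3.98 (SE 2.62, adjusted p = 0.959, edgeR) was the largest of the 44. Ndrg1, a stress-responsive gene, had 19 reads in Arid1a cKO 2, against 0 and 10 reads in controls 5 and 6. Ddit4, an inhibitor of mTORC1 signalling, had 39 reads in Arid1a cKO 2, against 49 and 35 reads. P4ha2 had 34 reads in Arid1a cKO 2, against 43 and 7 reads. The counting interval of the knockout library lay clear of both controls for Adm, but not for Ndrg1, Ddit4 and P4ha2. It covers counting error only, and the share of all genes with such an interval was not counted.

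The promoters are shown because glycolytic genes and HIF targets are classic carriers of the HIF recognition core, and the genes named differed in direction. RefSeq promoters on GRCm38.p6, from 250 bases before to 50 after the start, were matched for 39 of the 44 genes. The letters ACGTG or GCGTG, searched on both strands, stood in 32 of these 39 (82.1%), in 43.8% of all 32851 promoters in the table, and in 65.1% of 7396 promoters of genes at a mean of 5 CPM or more. They stood in 12 of 13 promoters of HIF factors, regulators and targets and in 20 of 26 of the others. ACGTG lies inside CACGTG, the E-box that many other basic helix-loop-helix factors bind, which stood in 5 of the 39 promoters (12.8%), in 7.15% of all and in 10.8% of those of genes at a mean of 5 CPM or more. The promoters printed are those of Hk2 (chr6:82774405-82774704, minus strand), Ldha (chr7:46845554-46845853, plus strand) and Mif (chr10:75860228-75860527, minus strand), higher in the knockout library, and of Bnip3 (chr7:138909457-138909756, minus strand) and Pdk1 (chr2:71872974-71873273, plus strand), which were not. Capitals mark ACGTG and GCGTG on either strand.
Hk2: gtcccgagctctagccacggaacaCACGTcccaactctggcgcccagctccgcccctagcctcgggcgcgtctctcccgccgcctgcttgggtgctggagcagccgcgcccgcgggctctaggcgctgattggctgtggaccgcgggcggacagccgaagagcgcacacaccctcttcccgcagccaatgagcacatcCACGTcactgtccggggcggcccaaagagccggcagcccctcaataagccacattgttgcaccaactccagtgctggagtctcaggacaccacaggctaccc
Ldha: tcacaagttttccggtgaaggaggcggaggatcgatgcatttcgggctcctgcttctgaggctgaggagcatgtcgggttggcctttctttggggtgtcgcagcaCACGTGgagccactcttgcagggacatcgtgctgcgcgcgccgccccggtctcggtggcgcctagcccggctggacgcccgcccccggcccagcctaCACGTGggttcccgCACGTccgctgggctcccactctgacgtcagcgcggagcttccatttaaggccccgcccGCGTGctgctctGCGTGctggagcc
Mif: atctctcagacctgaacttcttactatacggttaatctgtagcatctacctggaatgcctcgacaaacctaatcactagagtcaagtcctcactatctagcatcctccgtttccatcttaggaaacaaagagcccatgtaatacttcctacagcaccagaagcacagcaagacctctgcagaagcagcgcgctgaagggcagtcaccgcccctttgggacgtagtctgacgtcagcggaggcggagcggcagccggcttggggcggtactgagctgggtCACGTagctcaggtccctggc
Bnip3: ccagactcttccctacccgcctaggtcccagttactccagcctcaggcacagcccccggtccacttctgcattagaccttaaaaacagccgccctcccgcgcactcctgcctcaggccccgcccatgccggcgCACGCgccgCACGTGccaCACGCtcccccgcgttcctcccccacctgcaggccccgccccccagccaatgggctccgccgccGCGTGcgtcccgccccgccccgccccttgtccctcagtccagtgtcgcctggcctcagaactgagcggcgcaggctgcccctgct
Pdk1: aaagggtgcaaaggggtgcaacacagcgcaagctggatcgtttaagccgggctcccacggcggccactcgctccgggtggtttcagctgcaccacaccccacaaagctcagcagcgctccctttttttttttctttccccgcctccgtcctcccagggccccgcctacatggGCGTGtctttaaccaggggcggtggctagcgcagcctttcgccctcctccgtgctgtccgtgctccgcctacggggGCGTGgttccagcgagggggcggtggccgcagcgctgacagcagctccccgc
Of genes higher in the knockout library, the promoters of Hk2, Ldha and Mif held a motif and those of Gpi1, Tpi1 and Pkm neither. Of genes lowest there, that of Vhl held neither and that of Pdk1 held 2 GCGTG. That of Bnip3 held 1 CACGTG, which reads ACGTG on both strands, and 3 GCGTG. Whether motifs go with direction was not tested. The RefSeq start of Ldha lies 4329 bases from the gene start in the tables. A match is a run of letters and not a bound site.

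Neighbouring pathways, listed apart from the 44, had lower medians than the glycolysis, lactate and pyruvate genes among genes averaging 5 CPM or more. At that level the median of the HIF genes lay close to that of the tricarboxylic acid cycle genes and below that of other hypoxia response genes. Differences between the lists were not tested. The median log2 fold change at that level was 0.66 for the 25 glycolysis, lactate and pyruvate genes described above and 0.07 for the 11 HIF genes. It was 0.20 for 27 other hypoxia response genes, 0.08 for 20 genes of the tricarboxylic acid cycle, -0.14 for 15 other genes of glycolysis and glucose uptake, -0.16 for 9 of the pentose phosphate pathway and -0.21 for 8 of the pyruvate dehydrogenase complex and pyruvate import. No gene of these lists passed the test (smallest adjusted p = 0.380, edgeR). The knockout library lay above both controls in 9 of the 20 tricarboxylic acid cycle genes (background 35.8% at 5 CPM or more) and below both in 6 (35.3%), shares near the background.

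In the list of other glycolysis and glucose uptake genes, Slc2a5 lay below both controls and Slc2a6 above both. Slc2a5, a fructose carrier typical of microglia, had 17.9 CPM in Arid1a cKO 2, against 58.8 and 89.4 CPM in controls 5 and 6 (log2 fold change -2.05, SE 0.51, adjusted p = 0.380, edgeR). Slc2a6, a lysosomal sugar carrier of macrophages, had 72.4 CPM in Arid1a cKO 2, against 9.66 and 25.3 CPM (log2 fold change 2.05, SE 0.60, adjusted p = 0.544). Galm, a sugar mutarotase, had 19.6 CPM in Arid1a cKO 2, against 61.4 and 46.4 CPM, and the muscle enolase Eno3 had 287 reads in Arid1a cKO 2, against 3 and 47 reads in controls 5 and 6.

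Of the other hypoxia genes, Fam162a had 48.6 CPM in Arid1a cKO 2, against 19.4 and 22.5 CPM in controls 5 and 6, and the transferrin receptor Tfrc had 55.6 CPM, against 9.55 and 31.7 CPM. Insig2, which restrains cholesterol synthesis, had 27.8 CPM in Arid1a cKO 2, against 60.8 and 63.9 CPM, and Mxi1, a MYC antagonist, had 23.3 CPM, against 52.2 and 45.0 CPM. The hypoxia list therefore held genes on both sides, with adjusted p from 0.797 to 0.878 for these 4 (edgeR).

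In the routes that leave glycolysis, transketolase (Tkt) had 325 CPM in Arid1a cKO 2, against 134 and 201 CPM in controls 5 and 6, and Pgd, an oxidative pentose phosphate enzyme, had 133 CPM, against 77.7 and 82.6 CPM. Prps2, which feeds ribose into nucleotides, had 88.7 CPM in Arid1a cKO 2, against 183 and 191 CPM, and G6pdx, the entry enzyme, had 109 CPM, against 122 and 173 CPM. Pdp2, the phosphatase that reactivates pyruvate dehydrogenase, had 74.4 CPM in Arid1a cKO 2, against 175 and 140 CPM, and the subunit Pdhb had 224 CPM, against 394 and 288 CPM. Pdp1 had 7.99 CPM in Arid1a cKO 2, against 3.85 and 5.71 CPM, and Dlat had 61.2 CPM, against 43.4 and 56.2 CPM. In the tricarboxylic acid cycle the named genes were Sdhb (87.8 CPM in Arid1a cKO 2, against 173 and 118 CPM), Suclg2 (66.4 against 95.01 and 106 CPM), Aco1 (66.9 against 75.2 and 120 CPM) and Mdh1 (526 against 425 and 374 CPM). The adjusted p of these 12 genes lay between 0.713 and 1.000 (edgeR).

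**Figure D5:**
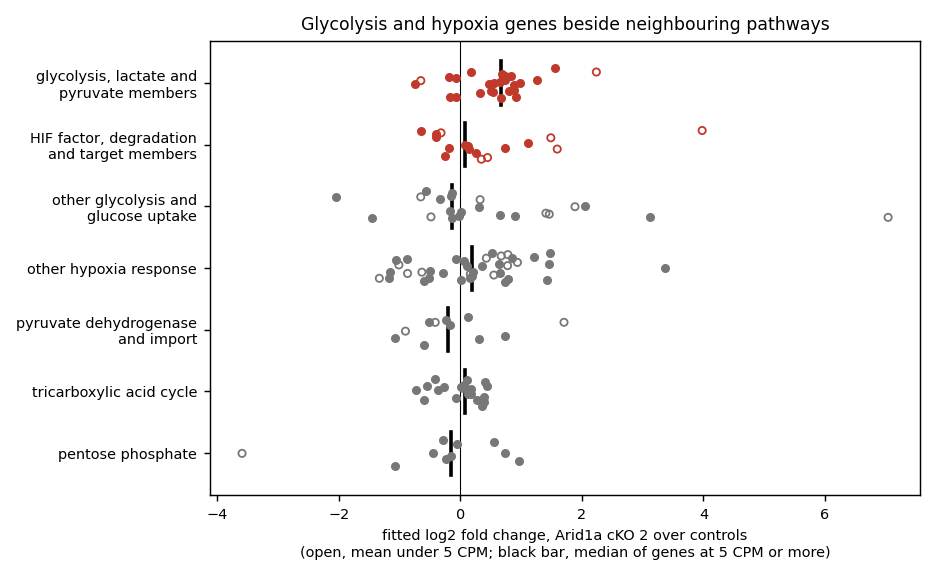
Fitted log2 fold change, Arid1a cKO 2 over the controls, for the glycolysis, lactate and pyruvate genes and the HIF genes (red) and for 5 neighbouring lists (grey); open points are under a mean of 5 CPM and black bars are medians of the rest. The median is 0.66 in the first row and between -0.21 and 0.20 in the others.

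Markers of other cell types summed to between 12.5 and 215 CPM in every library. The summed level of 10 neuronal markers was 154 CPM in Arid1a cKO 2, against 185 and 215 CPM in controls 5 and 6. The 7 listed of 9 progenitor markers summed to 210 CPM, against 146 and 152 CPM, with Sox2 and Eomes not listed and Emx2 at 0 in both controls. Vim carried the higher sum, with 102 CPM in Arid1a cKO 2, against 36.5 and 18.4 CPM. Nes, the other abundant marker of that list, had 97.0 CPM, against 97.0 and 113 CPM. Of these 7 progenitor markers, 4 lay above both controls (38.0% of all genes tested), 2 below both (31.1%) and 1 between them. The 7 listed of 8 endothelial markers summed to 27.1 CPM in Arid1a cKO 2, against 43.8 and 36.5 CPM. Esam was at 0 in both controls and Cldn5 and Tek at 0 in control 6. These markers went both ways, with Pecam1 at 3.89 CPM in Arid1a cKO 2, against 20.5 and 27.3 CPM, and Kdr at 14.3 CPM, against 7.32 and 6.52 CPM. Of the 5 tested, 2 lay above both controls (38.0% of all genes tested), 2 below both (31.1%) and 1 between them. The 6 listed of 10 erythroid markers summed to 40.9 CPM in Arid1a cKO 2, against 37.8 and 46.5 CPM, and the 3 listed of 8 mural markers to 12.7 CPM, against 12.5 and 15.6 CPM. The 7 listed of 8 neutrophil and monocyte markers summed to 135 CPM in Arid1a cKO 2, against 149 and 163 CPM, with Ly6g and Mpo at 0 in control 5. The part of these differences, and of the lower microglia markers, in the glycolytic values was not tested.

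In the authors' deposited tables, 7 of the 44 genes were marked as significant against control 5 (29.5% of all genes in that table) and 3 against control 6 (18.7%). Those marked against control 5 were Eno2, Ndrg1, Pfkp, Epas1, Slc16a3, Adm and Hk1, of which Eno2, Ndrg1, Epas1 and Adm had 0 reads in that control. Those marked against control 6 were P4ha2, Adm and Egln3. Only Adm was marked in both, and Hk2, Ldha, Tpi1, Gpi1 and Mif were marked in neither. The deposited tables share the knockout library, and the marks rest on single libraries.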

How the data were processed

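Libraries of sorted microglia were made with the Illumina TruSeq RNA kit, per the labels' protocols, and reads carry no strand. The submitters' processing notes name Bowtie2 2.2.3, TopHat2 2.0.12, HTSeq 0.6.0 and the build mm9. The gene positions in the tables matched GENCODE M21, on GRCm38, for 89.9% of the gene IDs found there, so they are given as GRCm38. The authors deposited 2 tables, each with raw read counts per gene for the knockout library and 1 control, and the log2 fold change between them. The knockout counts were identical in both tables for all 16655 shared genes. In 21 cases a symbol that had become a date was restored from the gene ID.

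Counts of shared genes were fitted with edgeR 4.0.16 in R 4.3.3. After filterByExpr, 15236 genes were tested with TMM factors (1.059 for the knockout library, 0.963 for control 5 and 0.981 for control 6). The quasi-likelihood F test was two-sided, with Benjamini-Hochberg adjustment over all genes and a threshold of 0.05. The common dispersion was 0.438, and the 1 residual degree of freedom came from the controls alone; a spread like theirs is taken for the knockout library. The standard error (SE) is the absolute log2 fold change over the square root of F. Log2 ratios over a single control use a prior count of 2. Intervals are exact at the 95% level (Poisson for a level, binomial for a ratio of reads) and cover counting error only, since reads without molecular identifiers are not independent molecules. Levels per kb use the median protein-coding transcript of the GENCODE basic set. Near-identical copies were sought with BLAST 2.17.0 (at least 200 bases at 95% identity or more).

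The genes and the pathway and marker lists were chosen with earlier results of these data known. Full statistics are given for the 16 genes with the largest log2 fold change in either direction at a mean of 5 CPM or more, and for 16 genes of central role whatever their values. For each neighbouring pathway the 4 genes with the smallest p at that level are named. Alternatives tried were scaling by library totals alone, by upper quartiles or by the size factors of DESeq2 1.42.0, other low-count filters, the DESeq2 Wald test, genes in either table, and leaving out each control.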

Additional observations from a re-analysis of the deposited data

How the results depend on the processing

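None of the 44 genes passed under any of the 7 alternatives with a test. Only 36 of them were tested at 5 CPM or more in 2 libraries, and 6 had no adjusted p in the DESeq2 Wald test. The smallest adjusted p lay between 0.268 (DESeq2 Wald test) and 0.85 (edgeR, upper-quartile scaling), with 5 to 8 genes at an unadjusted p under 0.05. Over all genes the edgeR count of 6 became 0 with no low-count filter (948 at an unadjusted p under 0.05), with DESeq2 size factors (895) or with upper-quartile scaling (818), 10 with genes in either table and 44 at 5 CPM or more in 2 libraries. It was 220 with the DESeq2 Wald test. The median log2 fold change of the 44 genes was 0.648 on library totals alone, which moved the median of all genes to 0.17. It then lay 0.475 above that median, against 0.476 with TMM. This likeness is no check, because a change of scaling shifts all genes nearly alike. On totals alone 29 of the 44 lay above both controls (44.3% of all genes), and 13 of the 18 enzymes did so under each of 4 scalings. The signs of Pfkfb3 and Pgk1, near 0 with TMM, turned on library totals alone (0.0519 and 0.0586). Without control 5 or without control 6 the knockout library is set against 1 control, with no residual degrees of freedom and so no test, and the median lay between 0.433 and 0.513; without control 5 Pfkfb3 stood at -0.42 and Pgk1 at 0.37, and without control 6 at 0.39 and -0.40. Leaving out the knockout library leaves no comparison. No paired analysis was possible because knockout and control libraries share no replicate number. Depth limits the genes under about 5 CPM, where 1 read is worth 0.0547 to 0.0741 CPM.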

Other observations

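A few genes outside the 44 carried large differences in the same pathways and were chosen after their values were seen. Hif3a, an alpha subunit best known for restraining the other HIFs, had 586 reads in Arid1a cKO 2, against 0 reads in control 5 and 85 reads in control 6 (log2 fold change 3.36, SE 1.66, adjusted p = 0.889, edgeR). Hilpda, a lipid droplet protein induced by hypoxia, had 13.7 CPM in Arid1a cKO 2, against 3.69 and 6.30 CPM in controls 5 and 6. Egln2, the prolyl hydroxylase that is not itself a common HIF target, had 45.7 CPM in Arid1a cKO 2, against 21.3 and 31.6 CPM. Rpia, which makes ribose-5-phosphate, had 8 reads in Arid1a cKO 2, against 143 and 37 reads in controls 5 and 6 (log2 fold change -3.59, SE 1.61, adjusted p = 0.850). The progenitor list was led in the knockout library by Vim, an intermediate filament that macrophages also express, with 102 CPM in Arid1a cKO 2, against 36.5 and 18.4 CPM in controls 5 and 6. None of these genes passed the test.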
